A study of Arabidopsis thaliana with 36 samples.

Results

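The 86 ATH1 probe sets described here measure 84 Arabidopsis thaliana genes that the probe annotation names by locus number alone and whose transcript levels were higher in xylem than in cork. They were chosen from group means of log2(intensity + 16): the xylem mean exceeded the cork mean by 1.3 or more, about 2.46-fold on that scale, in each of 3 genotypes, and AT4G30450 and AT4G30460 were left out. They came out of 11933 probe sets with a locus number alone, 13513 probe sets with 1 gene and 22810 on the array. Another 101 locus-number probe sets were lower in xylem by the same size. The xylem and cork arrays therefore chose these genes, and the difference between the tissues is given as a description with no test.

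The 36 arrays, 1 for each RNA sample, fell into 12 groups of 3, and each RNA came from a pool of 200 to 400 plants grown on compost in continuous light, with no plant age given in the labels. Xylem and cork came from wild-type Col-0, a MYB61 knockout and a MYB50 knockout, with no allele named. Whole hypocotyls came from wild-type Col-0, wild-type Ler, abi1 and aba1 (both labelled as Ler), and max4 and axr1, whose labels give the mutant name in place of an ecotype. Both of the last were set against Col-0, a pairing that the labels do not state, and 1 MYB50 knockout cork sample carries the word repeat in its title. Nothing in the labels says that the 3 samples of a group were grown separately, so the p-values below measure the spread between pooled RNA samples, which may be technical.

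Secondary growth thickens the hypocotyl of Arabidopsis in the way that it thickens a tree trunk. The vascular cambium, a cylinder of dividing cells, gives xylem (water-conducting vessels, fibres and parenchyma) to the inside and phloem (sugar-conducting tissue) to the outside, and a second, outer dividing layer makes cork, whose suberin-lined walls seal the organ. Vessels and fibres build thick secondary walls of cellulose, xylan and lignin, and the genes that do so are among the best known of xylem. MYB61 and MYB50 are related R2R3-MYB transcription factor genes. The phosphatase ABI1 acts in the response to abscisic acid (ABA) and the abi1 mutant is insensitive to this hormone, while aba1 cannot make the usual amount of it. MAX4 is a carotenoid cleavage enzyme of strigolactone synthesis, and AXR1 is needed to activate the ubiquitin ligases through which auxin acts.

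A locus number says where a gene lies and not what it does. Of the 84 genes, 27 lie on chromosome 1, 6 on chromosome 2, 14 on chromosome 3, 11 on chromosome 4 and 26 on chromosome 5, and 3 pairs are near neighbours by number (AT3G53960 with AT3G53980, AT4G21620 with AT4G21650, AT5G51670 with AT5G51680). The RefSeq gene table gave a functional name to 4 of the genes described below. AT1G33440 is NPF4.4, of the nitrate and peptide transporter family NRT1/PTR, AT2G41480 is the class III peroxidase gene PRX25, AT2G31110 is TBL40 of the trichome birefringence-like family, whose studied members acetylate wall polysaccharides, and AT4G08160 is ATXYN3, a xylanase gene. AT3G17110 is listed there as a transcribed pseudogene and the other 85 probe sets as protein coding. No role is given here to the rest.

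All values are scaled probe-set intensities, which compare a gene between samples and not one gene with another. Array medians lay between 35.1 and 44.9, values under 16 made up 29.6% to 37.1% of an array, and all 36 arrays had their closest match within their own group (r of 0.975 to 0.994 within groups). The genes mutated or knocked out in these lines are named by no probe set used here, and their own levels were not checked. Markers with a probe set checked the tissue labels in part. The suberin gene FACT was at 18.2 ± 3.92 (SD, n = 3) in Col-0 xylem and 114 ± 6.06 in cork, without overlap. Of the xylan genes, GUT2 was at 113 ± 46.3 in xylem and 48.3 ± 6.11 in cork, also without overlap. IRX15 read 5.6, 18.4 and 94.1 in xylem and 5.6 to 12.4 in cork, and IRX15-L 38.8, 47.8 and 78.8 in xylem and 41.7, 35.1 and 31.6 in cork, so both overlapped between the tissues. The phloem marker CLE41 was at 28.1 ± 6.06 in Col-0 xylem and 354 ± 12.5 in cork, and SWEET11 at 40.7 ± 3.44 and 109 ± 23.6. A further phloem marker, OPS, differed little, at 21.1 ± 5.01 in xylem and 26.8 ± 0.346 in cork. The photosynthetic gene PSB27 was at 58.2 ± 23.8 in xylem and 270.0 ± 36.1 in cork. Of the cambium genes, PHV was at 677 ± 40.2 in xylem and 109 ± 6.69 in cork, and MOL1 at 68.0 ± 5.84 and 133 ± 5.94. By CLE41, SWEET11 and PSB27 the cork samples thus carried phloem and photosynthetic signal, and the xylem samples were not set against cork tissue alone. All 86 probe sets passed the filter on low values (a mean over all arrays of at least 14.7), the lowest of them with a mean of 17.5.

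In xylem the median of the 86 group means was 292 for Col-0, 274 for the MYB61 knockout and 306 for the MYB50 knockout. In cork it was 24.7, 24.5 and 31.2 in the same order. Group means in xylem ran from 27.2 to 2767, so that none was under 16, whereas in cork 29, 30 and 16 of the 86 were under 16, again in that order. The median difference on the log2 scale was 2.41 for Col-0 (1.40 to 4.81), 2.32 without MYB61 (1.32 to 4.57) and 2.31 without MYB50 (1.31 to 4.62). The 3 xylem arrays lay above the 3 cork arrays for 86, 85 and 86 probe sets, and for 85 in all 3 genotypes, where the shares over all probe sets tested were 25.6%, 19.6%, 23.6% and 9.12%. These counts follow from the choice of the genes.

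**Figure D1:**
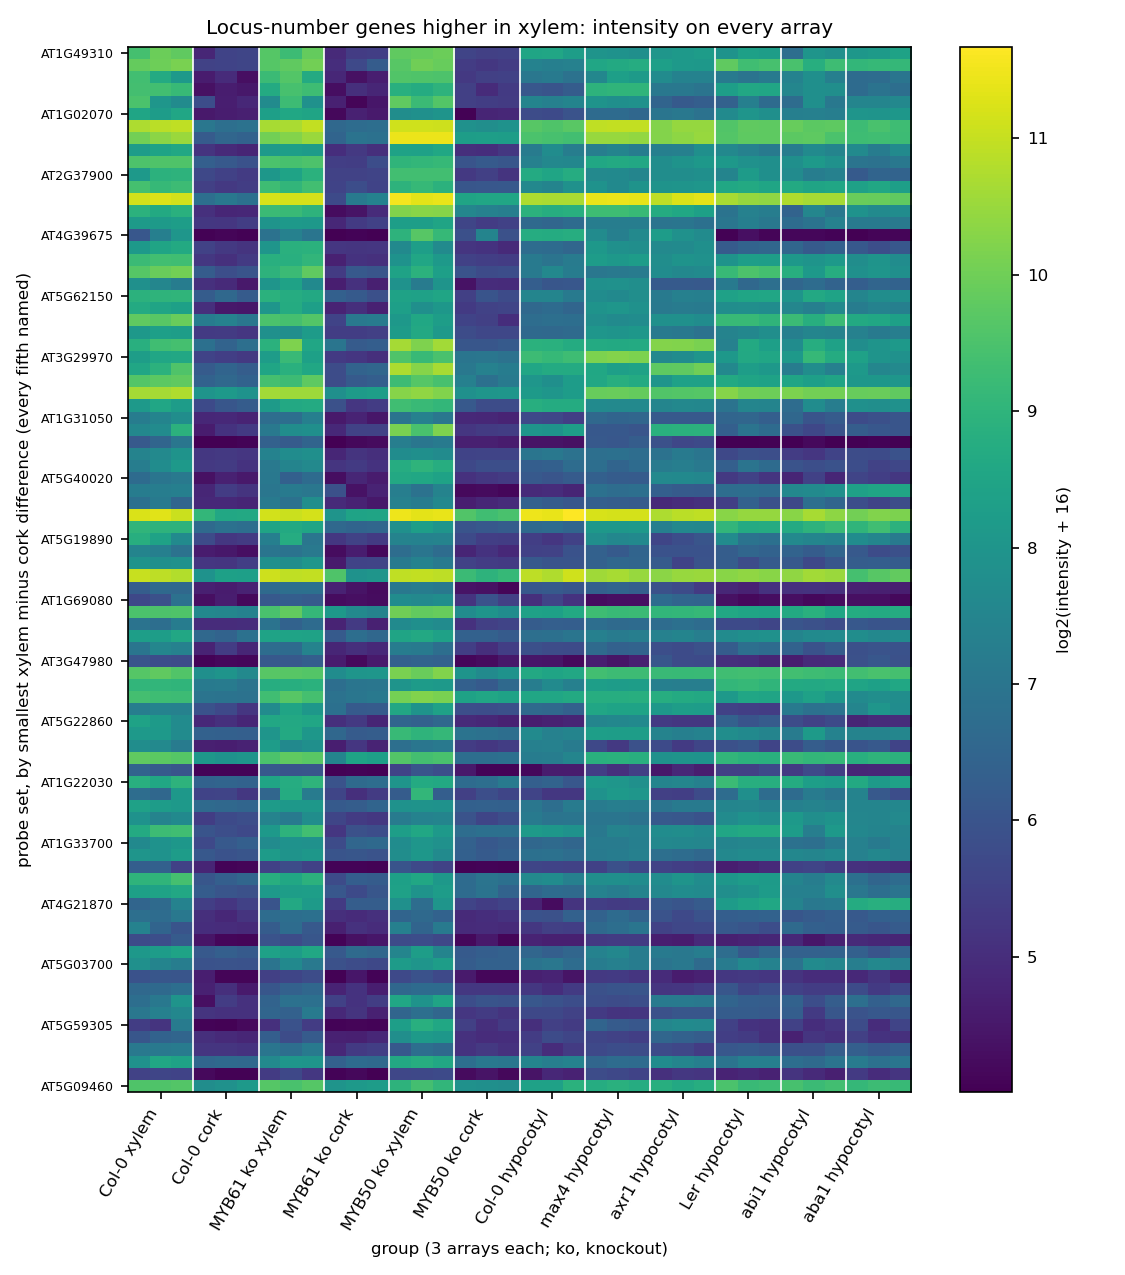
Heat map of log2(intensity + 16) for the 86 probe sets, ordered down the page by the smallest xylem minus cork difference, on the 36 arrays in their 12 groups. The xylem arrays stand high and the cork arrays low because the genes were chosen so. The hypocotyl arrays had no part in the choice and lie mostly between these chosen ends.

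The widest differences, judged by the smallest of the 3 genotypes, belonged to AT1G49310, AT5G43180 and AT5G61660. AT1G49310 read 663, 978 and 867 in Col-0 xylem and 12.5, 30.7 and 32.4 in Col-0 cork, and its smallest log2 difference was 4.34. AT5G43180 read 922, 986 and 1112 in Col-0 xylem and 29.7, 31.1 and 32.9 in cork, with a smallest difference of 4.17. AT5G61660 read 636, 397 and 268 in Col-0 xylem and 8.1, 14.8 and 4.1 in cork, with a smallest difference of 4.11. In each of these genes the dimmest Col-0 xylem array stood far above the brightest cork array, although the xylem arrays of AT5G61660 differed widely among themselves. The next by this measure were AT1G30760 (3.59), AT2G15780 (3.30), AT1G02070 (3.29), AT1G48750 (3.24), AT5G05960 (3.15), the transporter gene AT1G33440 (3.11), AT3G10120 (3.00), AT2G37900 (2.94) and AT3G48185 (2.93). AT1G48750 was at 1813 ± 135 in Col-0 xylem and 105 ± 9.89 in cork. AT2G15780 had the widest relative spread of the 12 genes in Col-0 xylem, with 709, 248 and 191 against 883, 589.5 and 776 in MYB50 knockout xylem. Just inside the threshold of the choice were AT5G65650 and AT1G04490, both with a smallest difference of 1.32, and AT5G09460 with 1.31, and just outside it were AT1G31490 (1.29), AT3G11420 (1.28) and AT5G17210 (1.27).

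A whole hypocotyl holds xylem, cork, phloem and cambium. In such bulk samples fewer cells of a type and less RNA per cell cannot be told apart. Col-0 hypocotyl lay between Col-0 cork and Col-0 xylem for 70 of the 86 probe sets, below cork for 9 and above xylem for 7. On a scale with cork at 0 and xylem at 1, its median place was 0.455, with 43 probe sets in the lower part of the way and 27 in the upper. Both ends of this scale come from arrays that chose the genes, with cork low and xylem high. The places and counts are therefore a description, and the shares over all probe sets were not computed. AT2G37900 and AT1G22480 stood at the xylem level. AT2G37900 read 396, 353 and 412 in Col-0 hypocotyl against 271, 476 and 478 in xylem, so the groups overlapped.

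The gene farthest above its own xylem level was AT4G39675, at 1.52 on that scale. It read 418, 408 and 421 in Col-0 hypocotyl, 52, 145 and 246 in xylem and 0.5, 1.2 and 0.5 in cork. All 3 hypocotyl arrays were thus above all xylem arrays. AT3G29970 and AT4G01700 were next, with 590.5 ± 32.2 and 416 ± 12 in hypocotyl against 340.0 ± 40.5 and 303 ± 46.8 in xylem. At the other end, AT4G21870 read 10.9, 3.4 and 20.1 in Col-0 hypocotyl and 27.2, 21 and 28.5 in cork, all 3 hypocotyl arrays being the lower. AT2G31110, the TBL40 gene, was at 146 ± 17.5 in hypocotyl against 239 ± 13.7 in cork and 837 ± 47.3 in xylem.

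**Figure D2:**
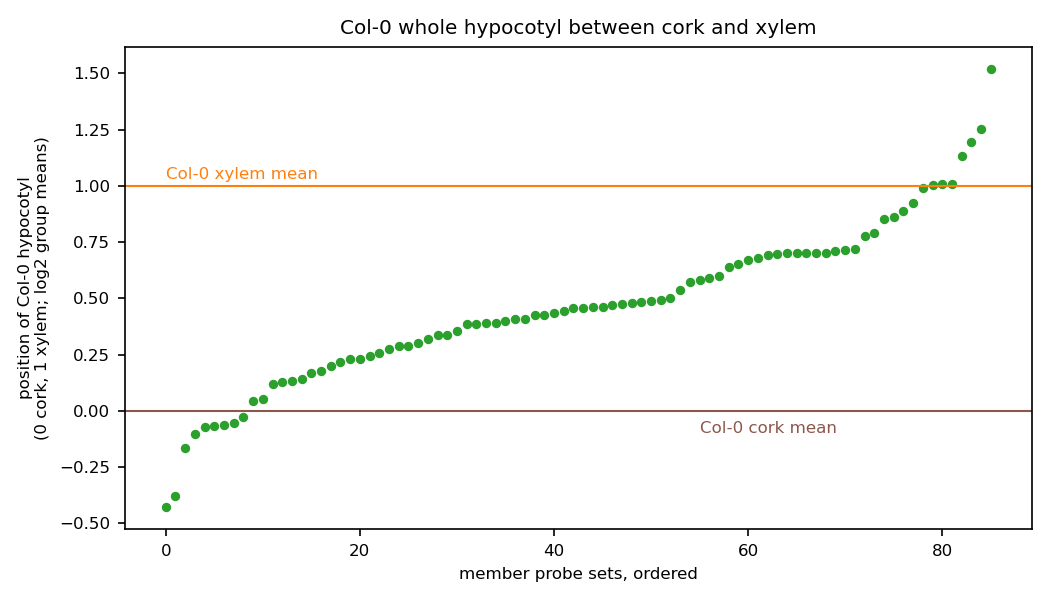
Place of the Col-0 hypocotyl group mean of each probe set between the Col-0 cork mean (0) and the Col-0 xylem mean (1) on the log2(intensity + 16) scale. Most of the 86 lie between 0 and 1, with a median of 0.455, while 9 lie below 0 and 7 above 1. Both ends come from arrays that chose the genes, so the places are a description.

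Levels also ranged widely across the 6 hypocotyl groups. The difference between the highest and the lowest of the 6 group means had a median of 1.41 on the log2 scale, against 0.623 over all 15924 probe sets tested, and it was 1 or more for 60 of the 86. The median group mean was 89.1 in Col-0, 152 in max4, 140 in axr1, 147 in Ler, 147 in abi1 and 142 in aba1. Col-0 hypocotyl held the lowest of the 6 means for 37 probe sets, and max4 the highest for 35. Ler held the highest for 17 and the lowest for 4, whereas aba1 held the highest for 10 and the lowest for 17. For these counts and the 60 above, the shares over all probe sets tested were not computed. They describe the 86 and do not show a trait particular to them. Of the 86, 74 were above the Col-0 cork mean in all 6 groups. The choice of genes with low cork levels enters this count, and its share over all probe sets was not computed.

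The max4 comparison asked how hypocotyls of a strigolactone mutant differ from Col-0. Of the 86 probe sets, 50 rose in max4 and 11 fell against Col-0 at an adjusted p under 0.05 (limma, Benjamini-Hochberg over the 15924 probe sets), while 20.9% of all probe sets tested were called higher and 23.7% lower. The median difference on the log2 scale was 0.64, against -0.02 over all probe sets tested. AT1G30760 read 51.8, 48.2 and 59.2 in Col-0 and 487, 508 and 501 in max4. The max4 arrays agreed closely and all stood far above Col-0, a 9.40-fold ratio of means and a log2 difference of 2.90 (SE 0.16, adjusted p = 2.21e-15). In max4 it came near its Col-0 xylem level of 617 ± 51.1.

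AT5G22860 read 8.6, 10 and 12 in Col-0 hypocotyl and 164, 174 and 186 in max4, a log2 difference of 2.86 (SE 0.13). AT1G49570 read 31.9, 22.2 and 22.2 in Col-0 and 225, 262 and 245 in max4 (9.60-fold, log2 2.66, SE 0.52). AT5G19890 read 26.9, 21.4 and 28.6 in Col-0 and 208, 171 and 183 in max4 (log2 2.29, SE 0.28). The means of these 3 genes in Col-0 hypocotyl lay just below those in Col-0 cork, and none of their max4 arrays overlapped with Col-0 hypocotyl. Of the members with a functional name, TBL40 (AT2G31110) rose from 146 ± 17.5 to 449 ± 10.6 and PRX25 (AT2G41480) from 84.5 ± 7.15 to 226 ± 27.2, with adjusted p of 1.29e-10 and 6.59e-07. NPF4.4 (AT1G33440), at 154 ± 37.5 and 144 ± 14.7, was not called, nor was ATXYN3 (AT4G08160), at 32.2 ± 6.37 and 29.8 ± 2.81.

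The largest falls in max4 were those of AT1G22480, AT2G29995, AT4G39675 and AT4G01700. AT1G22480 read 242, 229 and 299.9 in Col-0 and 53.3, 53.2 and 49.5 in max4, 4.94-fold lower (log2 -2.0, SE 0.25, adjusted p = 8.28e-08). AT2G29995 read 147, 149.9 and 132 in Col-0 and 34.7, 22.7 and 43.5 in max4 (log2 -1.70, SE 0.18). The other two had log2 differences of -1.22 (SE 0.31) and -1.12 (SE 0.19). In these 4 genes Col-0 hypocotyl lay close to or above the xylem level, and no max4 array reached the Col-0 range.

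In axr1, 41 probe sets rose and 10 fell against the same Col-0 arrays, where 17.5% and 19.2% of all probe sets tested were called higher and lower. The median was 0.37, against -0.03 over all probe sets tested. AT5G59305 read 17.2, 27.7 and 24.3 in Col-0 and 166, 187 and 178 in axr1, 7.68-fold higher (log2 2.31, SE 0.30, adjusted p = 2.61e-07). AT4G20860 read 85, 80.2 and 68 in Col-0 and 256, 295 and 286 in axr1 (log2 1.66, SE 0.18). AT3G47980 was near the floor of the array in Col-0, with 6.1, 5.6 and 2.3, and read 50.6, 38.6 and 36.7 in axr1 (log2 1.49, SE 0.12). AT5G40020 read 54.4, 49.6 and 58.3 and 178, 183 and 174 (log2 1.47, SE 0.16). All 4 were separated from Col-0 on every array.

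The falls in axr1 were led by AT2G29995, at 37.4, 23.7 and 32.8 (log2 -1.76, SE 0.18), and AT3G29970, which read 177, 197 and 243 in axr1 against 602, 554 and 615 in Col-0 (log2 -1.46, SE 0.20). AT5G48540 went from 59.6 ± 7.17 to 15.9 ± 2.00 and AT4G01700 from 416 ± 12 to 170.3 ± 6.45, with log2 differences of -1.24 and -1.21. PRX25 rose to 193 ± 15.5, TBL40 to 225 ± 6.26 and ATXYN3 from 32.2 ± 6.37 to 69.0 ± 8.11 (adjusted p of 1.90e-05, 0.00120 and 4.87e-05). NPF4.4 was at 167 ± 38.5 and was not called.

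The max4 and axr1 comparisons share their Col-0 arrays, so the mutants were also set against each other. Here 41 of the 86 were higher in max4 and 13 higher in axr1, where 16.1% of all probe sets tested were called in each direction, and the median was 0.27 against 0.02. AT1G30760, which stood at 499 ± 10.6 in max4, read 119, 119 and 108 in axr1 (max4 minus axr1 1.97, SE 0.16, adjusted p = 3.62e-11). AT5G22860 read 23.9, 21.9 and 22.2 in axr1 against 174 ± 10.9 in max4 (log2 2.3, SE 0.13). AT1G49570 read 28.1, 27.2 and 38.4 in axr1 (log2 2.47, SE 0.52) and was not called there against Col-0. AT3G29970 moved apart in both directions from Col-0, at 1150.4 ± 43.5 in max4 and 206 ± 33.8 in axr1 around 590.5 ± 32.2 in Col-0 (log2 2.40, SE 0.20).

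AT1G22480 did the reverse, with 449, 459.8 and 468 in axr1 against 52.0 ± 2.17 in max4 and 257 ± 37.9 in Col-0 (max4 minus axr1 -2.80, SE 0.25, adjusted p = 3.89e-10). AT1G69080 read 3.2, 4.2 and 4.1 in max4, 16.6, 31.6 and 19.1 in Col-0 and 87.6, 75.1 and 73 in axr1 (log2 -2.25, SE 0.19). The 3 groups did not overlap in either gene. AT3G53960 stood at 1153 ± 44.5 in axr1 and 396 ± 7.23 in max4, and AT1G75280 at 918 ± 92.6 and 335 ± 27.4 (log2 -1.50 and -1.41).

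GUT2, IRX15 and IRX15-L, the 3 of 24 listed wall and xylem markers with a probe set, were called higher in axr1 than in Col-0 in 3 of 3 and lower in max4 than in axr1 in 3 of 3. Their summed intensity was 261 to 269.6 on the Col-0 arrays, 147 to 169 in max4 and 487 to 537 in axr1. The 3 of 13 phloem markers with a probe set (CLE41, SWEET11 and OPS) summed to 783 to 814 in Col-0, 358 to 377 in max4 and 496 to 502 in axr1, most of it CLE41, which was at 614 ± 5.85 in Col-0. CLE41 and SWEET11 were called lower in both mutants, whereas OPS was called higher in max4 (log2 0.66, adjusted p = 9.78e-05) and was not called in axr1. The only cork marker of 14 with a probe set, FACT, was at 61.9 to 76.4 in Col-0, 88.9 to 105 in max4 and 137 to 198 in axr1. The part of these shifts in the levels of the 86 was not tested.

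The other lists were as thinly measured. Of the 2 lignin genes tested, HCT and PRX52, 2 of 2 fell in max4 and 1 of 2, PRX52, rose in axr1. PRX52 also fell in both abi1 and aba1, and 2 of 2 rose in the MYB50 knockout. In Ler HCT was lower than in Col-0 (log2 -0.67) and PRX52 higher (0.61). The 2 genes differed by tissue as well. HCT was at 1480 ± 305 in Col-0 xylem and 833 ± 76.6 in cork, and PRX52 at 15.2 ± 4.40 and 43.0 ± 7.75. Of the 2 cambium genes, MOL1 and PHV, 2 of 2 rose in max4, 1 of 2 rose in axr1, in Ler and in the MYB50 knockout, and 1 of 2 fell in aba1. Of the 4 photosynthetic genes, 2 fell in max4, 2 rose in axr1, 2 fell in abi1 and in the MYB61 knockout, 1 fell in aba1, and 3 rose while 1 fell in the MYB50 knockout. In the MYB61 knockout 0 of the 10 wall, lignin, phloem and cambium genes tested were called by limma after adjustment, and 1 of them, a lignin gene, had an unadjusted p under 0.05. The cork marker FACT was called lower there (log2 -0.27, adjusted p = 0.0348).

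**Figure D3:**
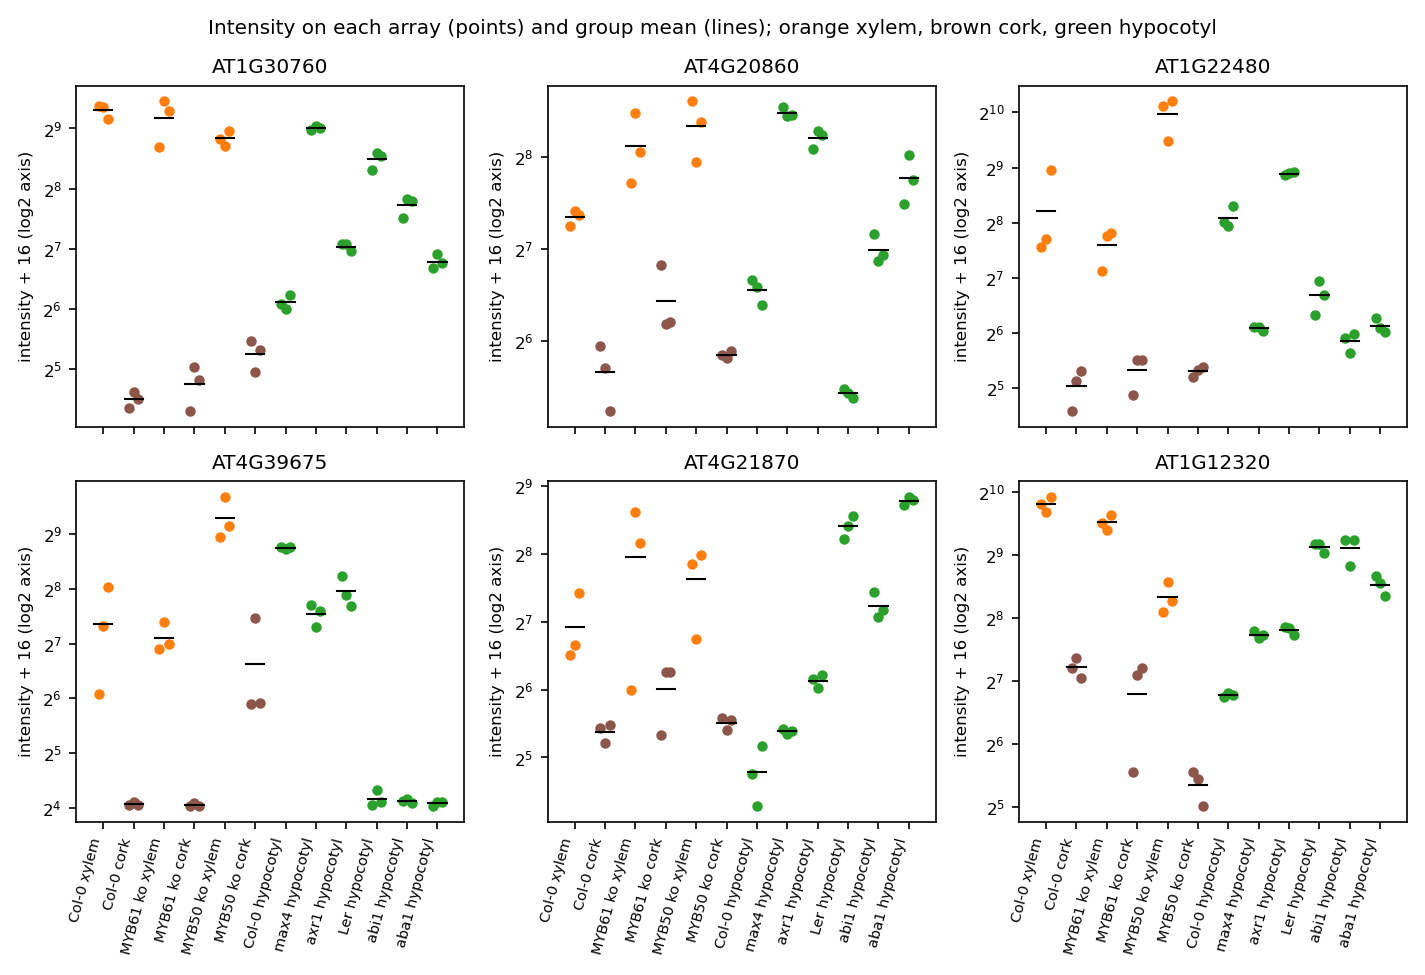
Intensity + 16 on a log2 axis for 6 genes in the 12 groups, 1 point per array, with a line at each group mean. AT1G30760 is highest among hypocotyls in max4, AT4G20860 lowest in Ler, AT1G22480 lowest in abi1 and highest in axr1, AT4G39675 near the floor in Ler, abi1 and aba1, AT4G21870 high in those 3, and AT1G12320 low in both MYB50 knockout tissues.

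The wild types themselves differed. Ler hypocotyl was higher than Col-0 for 47 of the 86 probe sets and lower for 19, where 30.7% and 27.1% of all probe sets tested were called higher and lower, with a median of 0.47 against 0.02. AT4G21870 read 284, 327 and 362 in Ler against 10.9, 3.4 and 20.1 in Col-0 (log2 3.67, SE 0.38, adjusted p = 1.35e-09). AT1G22030 read 584, 429.5 and 435 and 64.3, 71.5 and 52.3 (7.70-fold, log2 2.66, SE 0.19). AT1G30760 read 303, 369 and 356 in Ler (log2 2.38, SE 0.16) and AT1G12320 564, 561 and 508 in Ler against 91.3, 96 and 94 in Col-0 (log2 2.35, SE 0.23). Every Ler array exceeded every Col-0 array in these 4 genes.

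The largest fall of all was that of AT4G39675, which read 0.5, 4.1 and 1.2 in Ler, 1.5, 1.8 and 1 in abi1 and 0.4, 1.3 and 1.2 in aba1. Against 418, 408 and 421 in Col-0 the Ler difference was -4.59 on the log2 scale (SE 0.31, adjusted p = 1.32e-13). All 9 arrays of the Ler family were thus at the floor for this gene, with no fold given for values under 16. AT4G21620, AT4G01700 and AT2G29995 were next, with 131 ± 22.1, 143 ± 32.2 and 42.1 ± 9.28 in Ler (log2 -1.67, -1.46 and -1.46). TBL40 was higher in Ler, at 479.7 ± 34.7 (adjusted p = 1.75e-11), while PRX25 at 68.8 ± 10, ATXYN3 at 22.9 ± 5.16 and NPF4.4 at 150.1 ± 25.9 were not called.

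The split ran through the families. For 14 probe sets all 9 Ler, abi1 and aba1 arrays lay above all 9 Col-0, max4 and axr1 arrays, AT5G43180, AT1G02070, AT1G49470, AT1G12320 and AT4G19370 among them (6.96% of all probe sets tested did so), and for 9 they lay below (7.46%), AT4G39675, AT4G21620, AT4G21650, AT1G75280 and AT5G40020 among them. AT4G21650 was under 16 in Col-0 hypocotyl too, at 5.3, 5.4 and 4.6 against 0.1 to 2.3 on the 9 Ler, abi1 and aba1 arrays. The ATH1 probes were designed on the Col-0 sequence, so the level of a transcript in Ler and the match of its probes cannot be told apart here. The scanner background was also higher on the Ler arrays, 115 to 132, than on the Col-0 hypocotyl arrays, 64.6 to 89.8. With this background as a covariate, 42 of the 86 were called higher and 17 lower, where 24.7% and 23.6% of all probe sets tested were. The 3 wall markers were lower in Ler than in Col-0 in 3 of 3, with a sum of 131 to 135. Of the phloem markers CLE41 was lower (log2 -1.32), SWEET11 higher (0.70) and OPS not called. The cork marker FACT (log2 1.76) and the photosynthetic gene RCA (1.65) were higher in Ler, while the photosynthetic gene LHCB4.2 was lower (-0.49). The part of these shifts was not tested.

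The abi1 and aba1 comparisons set ABA insensitivity and ABA deficiency against Ler. In abi1, 3 of the 86 rose and 15 fell, where 4.67% and 5.76% of all probe sets tested were called higher and lower, and the median was -0.09 against -0.01. The abi1 count of 18 moved with single arrays: it was 9 without Ler replicate 3, 10 without Ler replicate 2, 10 without abi1 replicate 2, and 11 with the scanner background as a covariate. In aba1, 7 rose and 26 fell, where 11.8% and 15.3% were called, and the median was -0.20 against -0.02. With array weights the aba1 count of 33 was 51, and both comparisons use the same Ler arrays.

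AT4G20860 rose in both ABA mutants. It read 28.5, 27.3 and 25.5 in Ler, 127, 101 and 106 in abi1 and 164, 244 and 199 in aba1. The 3 groups did not overlap, with log2 differences from Ler of 1.56 (SE 0.18, adjusted p = 1.63e-07) and 2.32 (SE 0.18, adjusted p = 1.41e-11). AT1G10340 read 91, 93.8 and 90 in Ler, 177, 187 and 210.1 in abi1 and 323, 351 and 357 in aba1 (log2 0.94 and 1.74, SE 0.20 each), again in separate ranges. The pseudogene AT3G17110 was the third gene called higher in abi1, at 29.0 ± 2.62 against 11.6 ± 2.43 (log2 0.71, SE 0.17). AT3G47980 was called higher in aba1, at 46.7 ± 5.03 against 15 ± 2.77 (log2 1.02), as was AT4G21620, at 204 ± 20.5 against 131 ± 22.1 (log2 0.59).

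AT1G30760 led the falls in aba1. It read 86.5, 105 and 92.6 in aba1 and 168, 211 and 206 in abi1 against 303, 369 and 356 in Ler, with log2 differences of -1.70 (SE 0.16) and -0.77 (SE 0.16). AT4G22190 read 252, 286 and 276 in Ler and 97.6, 75.1 and 86.4 in aba1 (log2 -1.49, SE 0.15). AT2G37900 read 160.0, 284 and 211 in Ler and 57, 73.2 and 71 in aba1 (log2 -1.47, SE 0.18), and AT1G49470 558, 727 and 645 and 216, 243 and 213 (log2 -1.45, SE 0.20). No aba1 array reached the Ler range in these 4 genes. In abi1 the largest falls were those of AT4G21870, at 134 ± 20.4 against 324 ± 39.4 (log2 -1.18), AT1G22480, at 41.7 ± 7.07 against 86.8 ± 21.6 (log2 -0.82), and AT1G49470, at 375 ± 94.0 (log2 -0.78). The call was lost in 9 of 15 alternative settings for AT4G21870 and in 7 of 15 for AT1G22480.

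Set against each other, abi1 was higher than aba1 for 20 of the 86 and lower for 9, where 8.07% and 7.35% of all probe sets tested were called, with a median of 0.12 against -0.00. AT2G37900 was at 160.0 ± 28.6 in abi1 and 67.1 ± 8.79 in aba1 (log2 1.08, SE 0.18, adjusted p = 5.18e-05). AT3G10120, at 233 ± 33.4 and 110.2 ± 8.31, AT1G30760, and AT2G37130, at 1439 ± 109 and 784 ± 112, followed with 0.97, 0.93 and 0.87. AT4G21870 was the widest in the other direction, at 134 ± 20.4 in abi1 and 426 ± 19.1 in aba1 (log2 -1.56, SE 0.38), ahead of AT3G47980 (-1.13), AT1G10340 (-0.80) and AT4G21620 (-0.77). The 4 named genes, NPF4.4, PRX25, TBL40 and ATXYN3, were called in none of abi1, aba1 or their direct comparison, with log2 differences from Ler between -0.38 (PRX25 in aba1) and 0.18 (TBL40 in abi1). The suberin gene FACT, the 1 cork marker measured, was at 265 to 276 in Ler, 103 to 122 in abi1 and 133 to 179.7 in aba1, and its part was not tested. By limma 0 of the 3 wall markers were called in abi1 or aba1 after adjustment, and 2 of 3 in abi1 and 1 of 3 in aba1 had an unadjusted p under 0.05. The phloem marker SWEET11 was lower in aba1 than in Ler (log2 -1.24, adjusted p = 3.70e-09) and higher in abi1 than in aba1 (0.97). The phloem markers CLE41 (log2 0.22) and OPS (-0.18) were not called in aba1 against Ler. Neither was called in abi1 against aba1 (0.10 and -0.10).

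**Figure D4:**
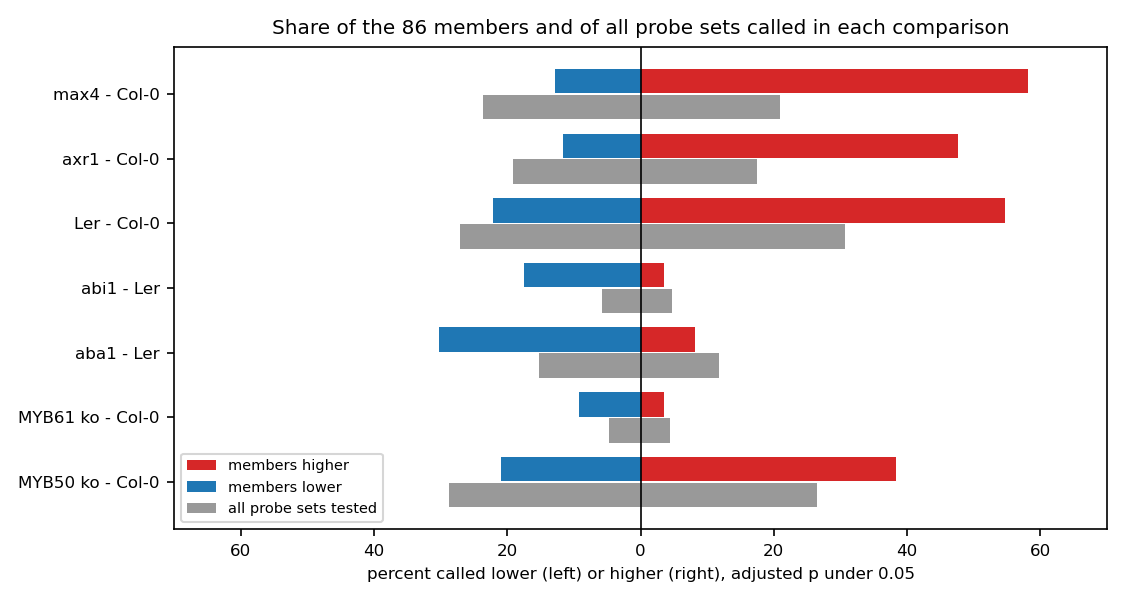
Percent of the 86 probe sets (coloured) and of all 15924 tested (grey) called lower, to the left, or higher, to the right, in 7 comparisons with a wild type. The bars of the 86 reach farther than the grey ones on the higher side for max4, axr1, Ler and the MYB50 knockout and on the lower side for abi1, aba1 and the MYB61 knockout. In the knockouts the choice of the genes used the same arrays, so nothing is read from their bars.

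For the knockouts the choice of genes used the difference between the tissues, and the mean of xylem and cork was tested. That mean is not free of the choice, because a gene whose xylem level fell strongly in a knockout could miss the threshold there, as could one whose cork level rose strongly, whereas a rise in xylem could not make it miss. The balance of rises and falls among the 86 in the knockouts is therefore a description, and nothing is read from its distance to all probe sets. In the MYB61 knockout 3 of the 86 rose and 8 fell, where 4.39% and 4.72% of all probe sets tested were called, and the median was -0.08 against -0.01. None reached 1 on the log2 scale in either tissue. The count of 11 was 6 without MYB61 knockout cork replicate 1, and 7 without Col-0 xylem replicate 2, Col-0 cork replicate 1 or MYB61 knockout xylem replicate 2. It was 6 with the scanner background as a covariate and 2 when only the arrays compared were fitted. AT4G20860 led again. It read 195, 339 and 249 in knockout xylem against 136, 154 and 149 in Col-0 xylem, and 97.5, 56.6 and 57.9 against 45.7, 36 and 21.6 in cork. The ranges were separate in both tissues (mean difference 0.76, SE 0.13, adjusted p = 0.000124).

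Among the others called, the genes with no overlap in either tissue were AT3G47980 and AT4G19370. AT3G47980 stood at 57.2 ± 4.29 against 42.6 ± 5.09 in xylem and 5.93 ± 3.07 against 1.53 ± 0.473 in cork (mean difference 0.32, adjusted p = 0.0157). All of these cork arrays were under 16, and the call was lost in 2 of 21 alternative settings. AT4G19370 was lower, at 362 ± 25.3 against 487 ± 11.4 in xylem and 77.3 ± 3.85 against 93.2 ± 7.5 in cork (mean difference -0.32, adjusted p = 0.0121). NPF4.4, PRX25, TBL40 and ATXYN3 were not called. The cork arrays of this knockout differed among themselves, AT1G12320 reading 31.3, 121 and 131 and AT2G37130 reading 733, 225 and 242 in replicates 1, 2 and 3.

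More of the 86 were called in the MYB50 knockout. As the mean of both tissues, 33 of the 86 rose and 18 fell, where 26.5% and 28.8% of all probe sets tested were called, and the median was 0.15 against -0.01. AT4G39675 read 479.5, 808 and 551 in knockout xylem against 52, 145 and 246 in Col-0 xylem, and 43.3, 161 and 44.4 in knockout cork against 0.5, 1.2 and 0.5 in Col-0 cork. Neither tissue overlapped, although knockout cork replicate 2 stood above its fellows (mean difference 2.24, SE 0.22, adjusted p = 6.34e-10).

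AT4G21620 read 1173, 1251 and 1219 in knockout xylem against 475, 389 and 448 in Col-0, and 168, 149.8 and 140.4 against 17.6, 12.7 and 13.2 in cork (mean difference 1.96, SE 0.12). AT5G59305 read 299, 441 and 362 against 26.6, 20.1 and 132 in xylem and 28.3, 16.8 and 24 against 1.1, 0.7 and 2.3 in cork (mean difference 1.90, SE 0.21). AT5G05960 read 2781, 2754 and 2756 against 1028, 1273 and 1439 in xylem and 296, 298 and 296 against 57.3, 76 and 69.5 in cork (mean difference 1.53, SE 0.08). The groups of these 3 genes were separate in both tissues, and Col-0 xylem replicate 3 was the highest of its group for AT5G59305, as it was for AT4G39675, AT1G22480, AT1G75280 and IRX15.

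AT1G12320 fell most. It read 259, 364 and 291 in knockout xylem against 881, 806 and 956 in Col-0 and 31.3, 27.6 and 16.3 against 132, 149 and 117 in cork (mean difference -1.68, SE 0.16, adjusted p = 3.52e-10). AT5G56460 stood at 262 ± 23.8 against 510.1 ± 5.80 in xylem and 68.3 ± 13.0 against 123 ± 12.5 in cork (-0.83, SE 0.07). AT4G19370 stood at 251 ± 43.8 in knockout xylem and 54.1 ± 5.75 in knockout cork (-0.78, SE 0.08). TBL40 was at 708 ± 59.5 against 837 ± 47.3 in xylem and 95.3 ± 2.50 against 239 ± 13.7 in cork (-0.72, SE 0.10). In all 4 both tissues were separate from Col-0.

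Within 1 tissue the knockout shares its arrays with the choice of genes, so values are given with no test. In xylem the MYB50 knockout arrays lay above all Col-0 arrays for 32 of the 86 and below for 23 (23.7% and 28.8% of all probe sets tested), and in cork above for 38 and below for 11 (26.7% and 26%). Differences of 1 or more on the log2 scale numbered 14 higher and 4 lower in xylem (5.47% and 1.76% of all) and 8 higher and 2 lower in cork (3.93% and 1.85%). ATXYN3 was higher on every knockout array in xylem, reading 207, 277 and 251 against 51.3, 69.8 and 75.8, while in cork it read 18.4, 15.7 and 16 against 17.2, 14.4 and 12 and the groups overlapped. AT1G22480 read 1093, 696 and 1156 in knockout xylem against 173, 193 and 478, and AT1G75280 1679, 1237 and 1626 against 360.5, 475 and 736. AT5G22860 went the other way in xylem, from 329, 277 and 194 in Col-0 to 75.2, 67.9 and 80.2 in the knockout, and was at 14.6 ± 2.76 and 12.5 ± 1.98 in cork.

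The wall markers rose in the MYB50 knockout as well, in 3 of 3 as the mean of both tissues. Their sum was 121 to 338 on the Col-0 xylem arrays and 997 to 1460.4 on those of the knockout, and 81.2 to 109 and 151 to 197 in cork. The phloem markers summed to 84.1 to 93.2 in Col-0 xylem and 97.5 to 119.5 in knockout xylem, and to 476 to 497 and 1045 to 1161 in cork. As the mean of both tissues CLE41 (log2 0.81) and OPS (0.58) were higher, and SWEET11 was lower (-0.30, adjusted p = 0.00484). FACT was at 13.8 to 21.4 and 16.7 to 20.4 in xylem and at 109 to 121 and 216 to 242 in cork. Their part in the differences of the 86 was not tested.

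The knockouts share the Col-0 arrays, and the direct comparison of MYB61 with MYB50 knockouts put 13 of the 86 higher in the MYB61 knockout and 34 higher in the MYB50 knockout, where 27.1% and 24.1% of all probe sets tested were called, with a median of -0.17 against 0.02. AT4G39675, AT5G59305, AT4G21620 and AT1G75280 were the lowest in the MYB61 knockout relative to the MYB50 knockout (-2.27, -2.15, -1.99 and -1.45, adjusted p of 8.57e-10 or less). The higher ones without overlap in either tissue were AT5G56460 (0.63), AT4G19370 (0.46) and AT5G09460 (0.38). AT4G20860, high in the MYB61 knockout, did not pass the test here (0.16, SE 0.13, adjusted p = 0.287).

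The MYB50 comparison and the comparison of max4 with axr1 have no array in common. Of the 33 probe sets higher in the MYB50 knockout, 10 (30.3%) were lower in max4 than in axr1, which is 76.9% of the 13 called in that direction, and 9 (27.3%) were higher in max4 than in axr1, 22.0% of those 41. Over all probe sets tested, 32.0% of the 4221 higher in the knockout were lower in max4 than in axr1 (1352, or 52.7% of 2567) and 13.4% were higher (565, or 22.0% of 2568). The knockout's rises among the 86 thus lay on both sides. The counts of 10 and 9 come from lists of unlike size, 13 and 41, so their nearness does not show an even split. Of the 18 lower in the knockout, 9 (50.0%) were higher and 2 lower in max4 than in axr1. The 10 higher in the knockout and lower in max4 were AT1G22480, AT1G69080, AT1G75280, AT1G80170, AT3G47980, ATXYN3 (AT4G08160), AT5G10580, AT5G40020, AT5G59305 and AT5G65650. AT1G69080, for example, was at 193 ± 10.6 in MYB50 knockout xylem against 59.6 ± 35.6 in Col-0 xylem, and AT5G40020 at 356 ± 28.0 against 106 ± 18.6. GUT2, IRX15 and IRX15-L, which are not among the 86, had the same pair of calls. The knockout calls come from arrays that also chose the genes, and the overlap counts carry no test.

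**Figure D5:**
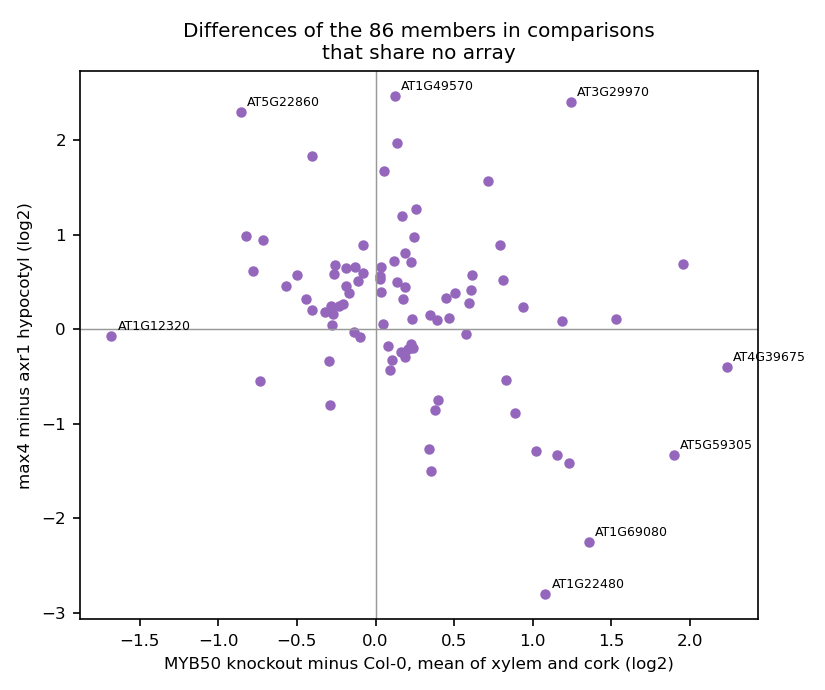
Log2 difference of MYB50 knockout from Col-0 (mean of xylem and cork, horizontal axis) against max4 minus axr1 in hypocotyl (vertical axis) for the 86 probe sets, which share no arrays between the axes. Genes called higher in the knockout lie on both sides of 0 on the vertical axis. They make up 10 of the 13 called lower in max4 than in axr1, among them AT1G22480 (1.08 and -2.80), AT1G69080 (1.36 and -2.25) and AT5G59305 (1.90 and -1.33). They make up 9 of the 41 called higher.

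The Ler and Col-0 hypocotyls share no array with the MYB50 comparison either. Of all 86, 54.7% were called higher and 22.1% lower in Ler, against 30.7% and 27.1% of all probe sets tested. The shares below therefore start from unlike bases. The knockout calls come from arrays that also chose the genes, and these overlaps carry no test. Of the 18 probe sets lower in the MYB50 knockout, 16 (88.9%) were higher in Ler than in Col-0 hypocotyl, which is 34.0% of those 47, and over all probe sets tested 2347 were in both lists (51.1% of 4589 and 48.0% of 4886). Of the 33 higher in the knockout, 14 (42.4%) were lower in Ler, 73.7% of those 19, and over all probe sets 1801 were in both (42.7% of 4221 and 41.7% of 4320). Another 7 of the 33 (21.2%) were higher in Ler, against 18.3% over all. AT4G39675 had the largest rise in the knockout and the largest fall in Ler. The gene lower in the knockout and also lower in Ler was the pseudogene AT3G17110 (-0.28 and -0.78), and PRX25, lower in the knockout (-0.41), was not called in Ler.

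Of the 86, 61 (70.9%) were called in 3 or more of the 7 comparisons with a wild type, as were 47% of all probe sets tested. The 2 knockout comparisons among the 7 used arrays that also chose the genes. The counts of calls are therefore a description, and nothing is read from the distance of 70.9% to 47%. By number of calls, 2 probe sets (AT1G33440 and AT5G51670) were called in none and 2 in 1, while 21 were called in 2, 23 in 3, 19 in 4, 14 in 5, 3 in 6 and 2 in all 7. The last were AT4G20860, higher in 6 and lower in Ler than in Col-0, and AT5G22860, higher in 4 and lower in 3. NPF4.4 (AT1G33440) had hypocotyl means from 144 ± 14.7 in max4 to 169.9 ± 32.2 in aba1, a xylem mean of 331 ± 43.0 in Col-0 and 337 ± 23.2 in the MYB50 knockout, and no call in any comparison. AT1G31050 and AT3G15240 had 2 probe sets each. Over the 36 arrays, which share their groups, the log2 values of the pair for AT1G31050 correlated with r = 0.956 (means of 64.5 and 19.0) and those for AT3G15240 with r = 0.941 (58.4 and 22.4), and the calls agreed in 4 of 7 and 7 of 7 comparisons.

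The 101 locus-number probe sets lower in xylem by the same rule can be set beside these counts. The shares over all probe sets tested are those given above. In max4, 22 of them rose and 33 fell, in axr1 37 rose and 16 fell, and in max4 against axr1 15 were higher and 47 lower. In Ler against Col-0 34 were higher and 46 lower, in abi1 8 and 20, and in aba1 12 and 28. The corresponding counts were 5 and 17 without MYB61 and 40 and 34 without MYB50, from arrays that chose this list too. No test was made between the lists.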

How the data were processed

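RNA from 36 pools of hypocotyl, xylem or cork was measured on Affymetrix ATH1 arrays (22810 probe sets, 64 of them controls). The deposited values are linear, scaled intensities with a 2% trimmed mean of 100.01 on every array, as the authors supplied them, and the sources used here do not name the software behind them. Genes were taken from the platform annotation and, for names, from RefSeq. Values were converted here to log2(intensity + 16), and probe sets whose mean over all arrays was under the 30th percentile (14.7) were left out, which kept 15924. One limma model (limma 3.58.1, R 4.3.3) with 12 group means was fitted to all 36 arrays, with an intensity trend, two-sided tests and Benjamini-Hochberg adjustment over all 15924 probe sets, at a threshold of 0.05. Fold values are ratios of mean intensities and are given where both means are 16 or more; log2 differences on the log2(intensity + 16) scale understate the change of dim genes. The differences of xylem from cork chose the genes and were not tested. The code was tested on simulated data.

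Groups came from the labels. The number of arrays, 3 a group, limits the precision. The members, the comparisons and the gene lists were chosen with earlier results of these data known. Most genes named are the up to 4 largest calls in each direction whose arrays did not overlap (for knockouts, in both tissues). The 12 with the widest tissue difference and genes with a functional name were added. Others are examples outside these rules, such as those named for their place between cork and xylem in Col-0 hypocotyl. AT1G22480, AT1G75280 and AT5G22860 in MYB50 knockout xylem are such examples too. An intended grouping by function was not made, since the gene table used here gives no product names. Of 107 marker genes in 7 lists, 3 of 24 wall genes, 0 of 13 wall regulators, 3 of 20 lignin, 3 of 13 phloem, 2 of 13 cambium, 1 of 14 cork and 4 of 10 photosynthetic genes had a probe set that names them alone, so these lists describe few genes. Replicate numbers did not pair the samples: over 13 pairs of groups the correlations of same-numbered deviations ran from -0.428 to 0.219.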

Additional observations from a re-analysis of the deposited data

Results flagged for a closer look

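For 9 of the 86 probe sets the MYB50 knockout differed from Col-0 in opposite directions in xylem and in cork, with no overlap of the arrays in either tissue, which is 10.5% of them against 2.9% of all 15924 probe sets tested. The choice of the genes used these arrays, so the shares are a description. The difference between the tissues was not tested, because it enters the choice of the genes. In 7 of the 9 (8.14% of the 86, against 1.5% of all) the knockout was lower in xylem and higher in cork. The log2 differences in xylem and cork were -0.47 and 0.75 for AT1G30760, -1.10 and 0.21 for AT3G47510, -0.43 and 0.81 for AT3G18560, and -0.56 and 0.65 for AT2G29995. They were -0.76 and 0.95 for AT5G09760, -0.80 and 0.53 for AT4G22190, and -0.71 and 0.12 for AT5G19970. The reverse was seen for AT3G53960 (1.3 in xylem and -0.59 in cork) and AT5G46730 (0.62 and -0.38). Some of the cork differences lay near the floor. For AT5G46730 every Col-0 and knockout cork array was under 16. Every Col-0 cork array was under 16 for AT1G30760 and AT2G29995, as was the Col-0 cork mean of AT3G18560. In the other genes of the 9 no cork array of Col-0 or the knockout was under 16. For AT5G19970 the highest Col-0 cork array read 19.5 and the lowest knockout cork array 19.6. With 3 arrays a group, no test for an outlying array was made.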

How the results depend on the processing

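No result reversed under the alternatives run (pseudocounts of 1 and 64, no filter and a 50th percentile filter, quantile normalization, a replicate block, array weights, the scanner background as a covariate, only the arrays compared, and each array left out). The abi1 count of 18 was 11 with the background covariate and 9 to 19 with 1 array left out. The aba1 count of 33 was 51 with array weights and 25 to 28 with 1 array left out. The MYB61 knockout count of 11 was 6 with the background covariate, 2 with only the arrays compared and 6 to 12 with 1 array left out. It was also 6 without the MYB61 knockout cork array of lowest weight (0.218) and the MYB50 knockout cork array marked as a repeat, an alternative chosen after seeing the data. The count of 29 for abi1 against aba1 was 19 with a pseudocount of 1 and 20 to 27 with 1 array left out. The other counts ranged from 57 to 61 (max4), 48 to 51 (axr1), 61 to 64 (Ler), 47 to 51 (MYB50 knockout), 44 to 46 (max4 against axr1) and 42 to 50 (MYB61 against MYB50 knockout) with 1 array left out. The rule itself chose 133 probe sets with a pseudocount of 1 and 42 with 64, the former holding all 86 and the latter lying within them, 85 after quantile normalization (84 shared), and 79 to 89 with 1 array left out. The causes of these shifts were not tested.

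With a replicate block, although the numbers do not pair the samples, the counts were 20 (abi1), 32 (aba1), 63 (max4), 51 (axr1), 66 (Ler), 10 (MYB61 knockout), 51 (MYB50 knockout), 29 (abi1 against aba1), 55 (max4 against axr1) and 46 (MYB61 against MYB50 knockout). Of 1215 alternative values for the genes named by rule, 1189 kept their call and 26 lost it, 9 of them for AT4G21870 and 7 for AT1G22480, both in abi1. With values under 16 for many of these genes in cork, the size of their tissue difference depends on the pseudocount.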
